A study of Rattus norvegicus with 233 samples.

Results

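Single hepatocytes from ethanol-fed rats were compared at 24 h and at 0 h after partial hepatectomy, an operation that takes out a portion of the liver. The labels place 54 cells in the ethanol diet group at 24 h and 55 in the ethanol diet group at 0 h, 109 of the 233 cells of the series, and every one of them was used. The cells were chosen by the diet and the time in their titles, and no measured value entered the choice. All animals were on the Lieber-DeCarli regimen, a liquid diet in which ethanol takes the place of part of the carbohydrate. The labels call the diet without ethanol "Carbohydrate", and its 69 cells at 0 h and 55 at 24 h enter below only where their values are set beside those of the ethanol cells. No label states strain, sex or age. Cells were cut from tissue by laser capture microdissection, reverse transcribed, pre-amplified for 22 cycles with the primers of the panel and amplified for 30 cycles with SYBR Green on a 96-sample microfluidic array.

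Hepatocytes, the main parenchymal cells of the liver, are normally quiescent. After partial hepatectomy the remaining hepatocytes leave quiescence, pass through immediate early gene expression and growth factor signalling, replicate their DNA and divide until liver mass is restored. Long-term ethanol intake is known to impair this regeneration in rodents. The comparison asks how the panel differed between 24 h and 0 h after resection when the animals had been fed ethanol.

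The readout is a cycle threshold (Ct) for each of 84 assays in each cell. The Ct falls as template rises, by 1 cycle per doubling when amplification is complete. The files pair no assay number with a gene, so assays are named here by number, the cell type in the labels could not be checked against marker genes, and no sequence or pathway can be given. For each readout only the largest differences in each direction are named. No label says which animal a cell came from. Each group therefore counted as 1 sample, no test was made, SDs are over cells, and a difference of time cannot be told apart from a difference between animals.

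Cells at 24 h had values for more of the panel. The number of assays with a value ran from 34 to 81 over the cells at 0 h, with quartiles of 51.5 and 69, and from 31 to 82 at 24 h, with quartiles of 63.25 and 76. Cells with fewer than 50 assays made up 23.6% at 0 h (13 of 55, exact Clopper-Pearson 95% interval 13.2% to 37.0%) and 7.41% at 24 h (4 of 54, 2.06% to 17.9%). At the other end, 9.09% of cells at 0 h (5 of 55, 3.02% to 20.0%) and 33.3% at 24 h (18 of 54, 21.1% to 47.5%) had at least 75 assays. These intervals cover counting error over cells only. The most complete cells were thus found mainly at 24 h and the sparsest at 0 h, while both groups spanned nearly the same range.

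The template level of a cell was taken as its median Ct over 28 common assays, which are the ones measured in 80% or more of the cells in each of the 4 groups. At 0 h this median lay between 8.82 and 22.3, with quartiles of 12.6 and 14.6, and at 24 h between 10.5 and 20.7, with quartiles of 12.2 and 13.9. Its SD at 0 h was 2.55 (n = 55 cells), against 1.86 at 24 h (n = 54 cells). A median above Ct 17 was found in 6 cells at 0 h and 3 cells at 24 h. Values above Ct 20, from the late cycles of the run, made up 9.66% of the values at 0 h (321 of 3322) and 4.96% at 24 h (183 of 3688). At each time, the number of assays with a value and the median Ct of a cell were inversely related (Spearman's rho -0.77 at 0 h over 55 cells and -0.81 at 24 h over 54 cells). A NULL among the common assays entered this median at Ct 30, so missing values raise it by construction. With NULL left out of the median, rho was -0.73 at 0 h and -0.77 at 24 h. Both measures come from the same reactions of a cell.

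**Figure D1:**
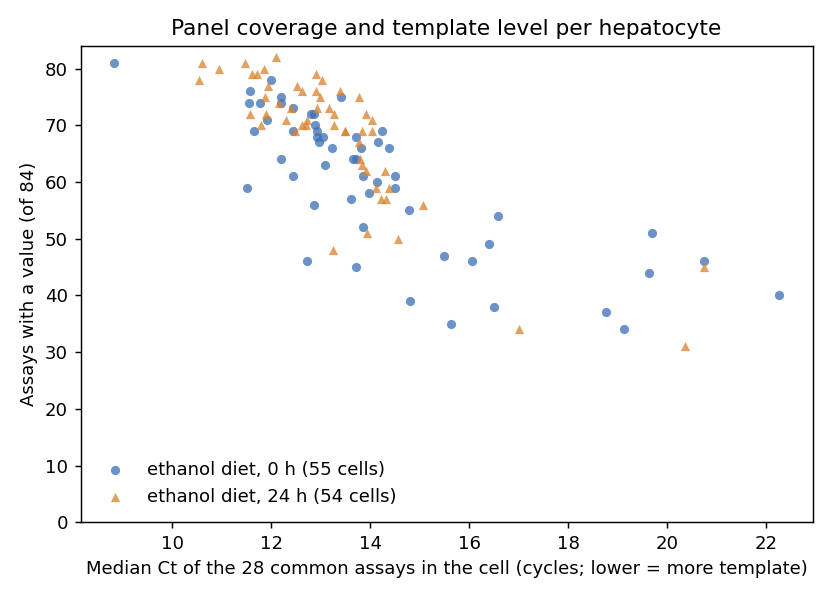
Each point is 1 ethanol-fed hepatocyte, 55 at 0 h (circles) and 54 at 24 h (triangles). The horizontal axis is the median Ct of the 28 common assays in cycles and the vertical axis the number of the 84 assays with a value. Cells with a median above Ct 17, 6 at 0 h and 3 at 24 h, lie at the lower right.

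Levels were compared after scaling every cell to this median. The entry of NULL in the median thus carries into every relative level, and into each SD and r taken from relative levels. No setting that scaled cells left NULL out of the median. Over all 84 assays NULL made up 28.1% of entries at 0 h and 18.7% at 24 h. Whether it raised relative levels more at 0 h was not tested. The relative level of an assay is the common-assay median minus the Ct of the assay, on the log2 scale, so that a higher value means more transcript relative to the rest of the cell. With at least 10 cells with a value at each time, 81 assays could be compared. Of these, 10 were higher at 24 h by at least 1, which is 12.3% of those compared, 3 were at least 1 lower (3.7%), and for 68 the size was smaller. The differences over the 81 assays had a median of 0.06 and quartiles of -0.33 and 0.61, and 49 were above 0. None of the 10 higher assays differed by more than its SD over cells (the root mean square of the SDs at the 2 times), and 1 of the 3 lower assays did. The ranges of the 2 times overlapped for each of these 13 assays. Of the cells at 24 h, 55.8% to 91.3% lay above the median at 0 h for the 10 higher assays, and 2.13% to 26.3% for the 3 lower ones.

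A53 had the largest difference upward. At 0 h its relative level ran from -10.77 to 3.82 over 49 cells with a median of -2.59 and quartiles of -5.41 and -1.19. At 24 h it ran from -9.33 to 6.14 over 49 cells with a median of -0.59 and quartiles of -1.47 and 0.03. The ranges at the 2 times nearly coincide, but the lower quartile at 24 h, -1.47, lies near the upper quartile at 0 h, -1.19. The mean was -3.23 ± 3.01 (SD, n = 49 cells) at 0 h and -1.09 ± 2.59 at 24 h (SD, n = 49 cells), which differ by 2.14, and 41 of the 49 cells at 24 h lay above the median at 0 h. The median Ct of A53 without scaling was 17.8 at 0 h and 13.8 at 24 h. A53 had a value above Ct 20 in 6 cells at 0 h and 2 cells at 24 h.

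A82 was higher both in level and in the share of cells with a value. Its relative level at 0 h ran from -10.26 to 2.42 over 31 cells with a median of -2.40, and at 24 h from -6.46 to 1.47 over 46 cells with a median of -0.77. The mean difference was 2.01, and 42 of the 46 cells at 24 h lay above the median at 0 h. A value of A82 was found in 56.4% of cells at 0 h (31 of 55; exact interval at the 95% level, 42.3% to 69.7%) and 85.2% at 24 h (46 of 54, 72.9% to 93.4%). The cells at 24 h were also closer together, with an SD of 1.44 (n = 46 cells) against 2.68 (n = 31 cells). Values above Ct 20 were found in 6 cells at 0 h and 1 cell at 24 h, and with such values treated as missing the difference of A82 was 0.93.

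A65 had the largest difference downward and the clearest separation of the 4 assays. At 0 h its relative level ran from -4.88 to 7.25 over 50 cells with a median of 0.65 and quartiles of -0.40 and 1.68, and at 24 h from -10.41 to 0.73 over 47 cells with a median of -1.23 and quartiles of -1.89 and -0.43. Only 1 of the 47 cells at 24 h lay above the median at 0 h. The mean was 0.60 ± 1.93 (SD, n = 50 cells) at 0 h and -1.62 ± 2.02 at 24 h (SD, n = 47 cells), with a difference of -2.22. A65 is also 1 of the 28 common assays.

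A44 differed by -1.37, with a median of -0.62 over 41 cells at 0 h and -1.91 over 38 cells at 24 h. Its quartiles were -1.22 and 0.30 at 0 h and -3.04 and -0.60 at 24 h. At 24 h 10 of the 38 cells lay above the median at 0 h, so the groups overlapped more than for A65. On the control diet the difference between 24 h and 0 h was 2.49 for A53, 2.88 for A82, -1.71 for A65 and -0.19 for A44. At 0 h these rested on 55, 18, 60 and 29 of the 69 control cells, in the same order. At 24 h they rested on 53, 48, 50 and 31 of 55. These values stand beside the ethanol values as a description, since the difference between diets could not be tested.

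**Figure D2:**
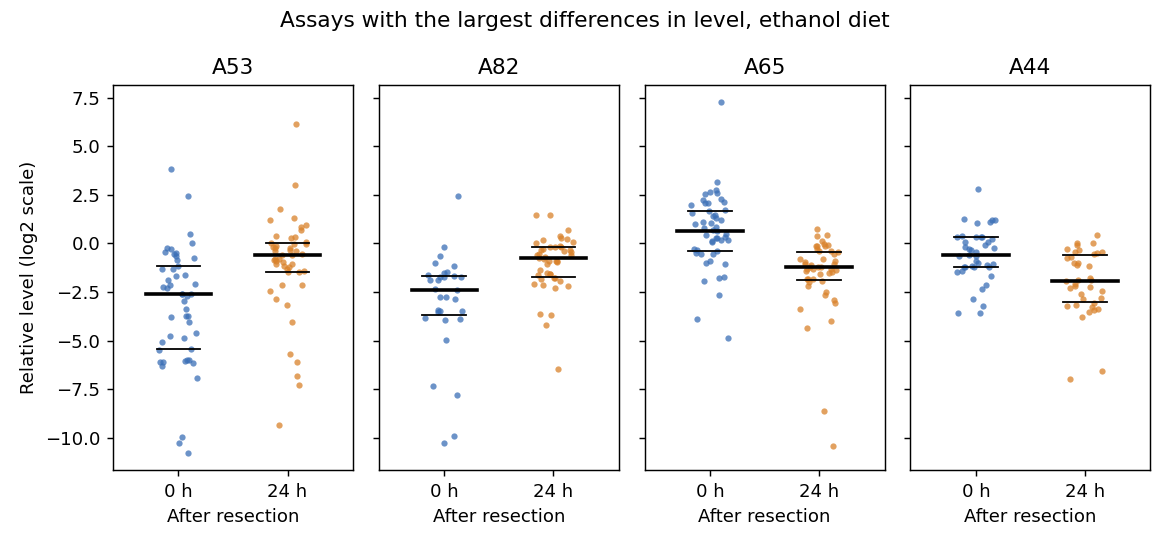
Relative level on the log2 scale, one point per ethanol-fed cell with a value, for A53, A82, A65 and A44 at 0 h and 24 h. Thick bars are medians and thin bars quartiles. The median of A65 is 0.65 at 0 h and -1.23 at 24 h, and that of A53 is -2.59 at 0 h and -0.59 at 24 h.

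The count of higher and lower assays depended on how late and missing values were handled. Over the 10 higher assays, 18.6% of the values at 0 h (75 of 403) and 5.17% at 24 h (24 of 464) were above Ct 20. With values above Ct 20 treated as missing, 3 assays were higher and 6 lower. Without scaling the median difference over the 81 assays was 0.82, and 32 assays were higher and 1 lower. Among the 36 cells at 0 h and 38 at 24 h whose common-assay median lay between Ct 12 and 15, 18 of 78 assays were higher and 3 lower. A53, A82, A65 and A44 kept their direction in each of these settings, while without scaling the difference of A44 was -0.58.

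Many assays that few cells had at 0 h had a value in more cells at 24 h. The share was higher for 65 of the 84 assays, lower for 17 and equal for 2, with a median difference of 8.45 percentage points. A difference of at least 20 points upward was found for 15 assays (17.9%) and downward for 0. An assay with a value in more than 80% of cells at 0 h cannot reach that size, and of the 48 assays at or below 80% the 15 were 31.2%. The shares of the 15 assays lay between 14.5% and 70.9% at 0 h and between 40.7% and 92.6% at 24 h. For 9 of the 15 the exact 95% intervals at the 2 times did not overlap. Over all 84 assays, 10 had an interval at 24 h wholly above that at 0 h. The 15 were picked for a large difference, so this count is no separate evidence for them. At 0 h 16 assays had a value in fewer than 50% of the cells, and at 24 h 5 did.

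A17 had the largest difference, 33.7 points. Its share was 20.0% at 0 h (11 of 55; exact interval at the 95% level, 10.4% to 33.0%) and 53.7% at 24 h (29 of 54, 39.6% to 67.4%). A31 differed by 32.3 points, from 45.5% (25 of 55, 32.0% to 59.4%) to 77.8% (42 of 54, 64.4% to 88.0%). On the control diet the share of A17 was 10.1% at 0 h (7 of 69, 4.18% to 19.8%) and 60.0% at 24 h (33 of 55, 45.9% to 73.0%). That of A31 was 13.0% (9 of 69, 6.14% to 23.3%) and 69.1% (38 of 55, 55.2% to 80.9%). At 0 h the share was higher in ethanol than in control cells for both assays, and at 24 h it was higher for A31 and lower for A17. The intervals of the diets overlapped for A17 at both times and for A31 at 24 h. Of the 15 assays, 9 also differed by at least 20 points on the control diet, where 24 of the 84 assays did.

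The level of the assays with more cells with a value was distributed much as over all assays. Of the 15 assays, 12 had enough cells for a comparison of levels. Their median level difference was 0.03, with 7 above 0 and 5 below, against 0.06 over all 81 assays. A75 and A82 of the 12 (16.7%) were also higher in level by at least 1, against 12.3% over all assays, and none was lower by as much, against 3.7%. They are named because they met both size rules, which was seen after their values were known. The share of A75 was 52.7% at 0 h (29 of 55) and 83.3% at 24 h (45 of 54), and its relative level differed by 1.07. Conversely, 9 of the 10 assays higher in level had a higher share at 24 h, by a median of 15.3 points over the 10, beside 77.4% and 8.45 points over all 84 assays.

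**Figure D3:**
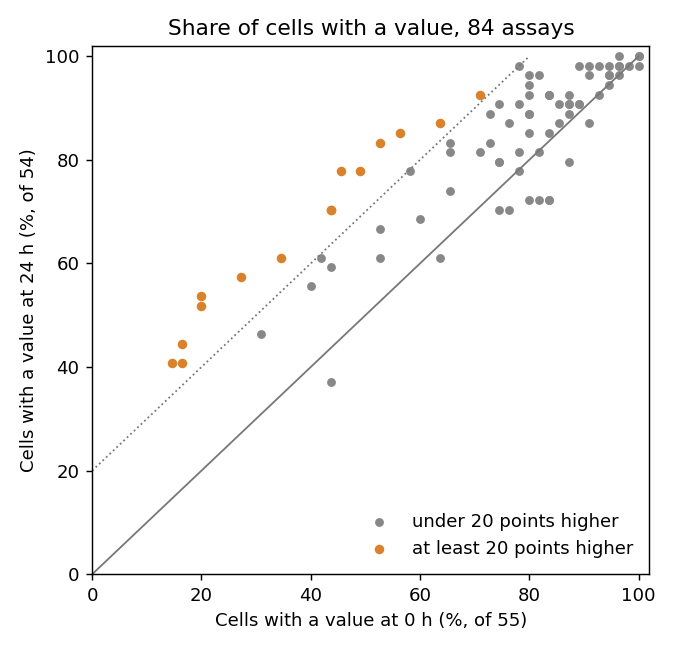
Percent of ethanol-fed cells with a value at 0 h (horizontal, of 55 cells) and at 24 h (vertical, of 54 cells), one point per assay, 84 assays. The solid line marks equal shares and the dotted line a difference of 20 percentage points, which 15 assays reach.

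In the other direction A01 and A11 shared the largest difference, each at 83.6% at 0 h (46 of 55; exact interval at the 95% level, 71.2% to 92.2%) and 72.2% at 24 h (39 of 54, 58.4% to 83.5%). The intervals overlap. A11 is 1 of 5 assays, with A05, A29, A56 and A66, that lacked a value together in 9 cells at 0 h and 15 cells at 24 h, and A11 lacked a value in no other ethanol cell. Most of these cells have consecutive numbers in their titles, such as 15 to 19 and 42 to 45 at 24 h and 51 to 54 at 0 h. The labels do not say what the numbers follow, and the intervals count each cell as independent. The share was lower at 24 h for each of these 5 assays. A01 lacked a value in 9 and 15 cells as well, of which only 3 at each time were among those cells. Over the other 79 assays, 65 shares were higher at 24 h and 12 lower, and the median number of these assays with a value per cell was 59 at 0 h and 69 at 24 h. Without the cells lacking all 5, 18 assays were higher by at least 20 points and 0 lower, and the difference of A11 was 0 points.

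Cells at 24 h were more alike in most assays. The SD over cells of the relative level could be compared for 76 assays with at least 20 cells with a value at each time. It was smaller at 24 h for 61 of them and larger for 15, and its median was 2.20 at 0 h and 1.56 at 24 h. The ratio of the SD at 24 h to that at 0 h had a median of 0.81. It was 0.8 or less for 37 assays (48.7%), and the inverse of 0.8 or more for 4 (5.26%). An SD of at least 2 was found for 41 assays at 0 h and 26 at 24 h. Of the 37 narrower assays, 33 (89.2%) differed by less than 1 in mean relative level and the other 4 were higher by at least 1, close to the 84.0% that differed by less than 1 over the 81 assays compared. On the control diet the ratio was below 1 for 45 of 69 assays, with a median of 0.86, and it was 0.8 or less for 29 and at least the inverse of 0.8 for 4.

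A09 had the smallest ratio, 0.35. Its relative level ran from -3.38 to 11.89 over 24 cells at 0 h, with an SD of 2.94, and from -1.91 to 2.12 over 32 cells at 24 h, with an SD of 1.03. The means were 0.18 and 0.03, so the center hardly differed. The highest value at 0 h belonged to 1 cell with a Ct of 3.59 for A09, and without that cell the ratio was 0.65. A55, a common assay with a value in nearly every cell, had a ratio of 0.37, with SDs of 2.39 at 0 h (n = 54 cells) and 0.89 at 24 h (n = 53 cells) around means of 2.40 and 2.44. A single cell at 0 h stood at 17.17, with a Ct of 5.09 for A55 against a common-assay median of 22.3. Without that cell the ratio of A55 was 0.72, and its interquartile range was 1.20 at 0 h and 0.75 at 24 h. The cells with these highest values of A09 and A55 both lacked A15, a common assay, and a NULL raises the median by construction. Without A15 the median was 14.8 in place of 15.5 in the A09 cell. In the A55 cell it was 21.5 in place of 22.3.

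A80 and A43 were more spread at 24 h. The SD of A80 was 0.97 at 0 h (n = 39 cells) and 1.87 at 24 h (n = 44 cells), a ratio of 1.92. Its lowest value was -1.52 at 0 h, and 10 of the 44 cells at 24 h lay below that, down to -8.09. Without the lowest cell the ratio of A80 was 1.57. The SD of A43 was 1.58 at 0 h (n = 24 cells) and 2.42 at 24 h (n = 38 cells), a ratio of 1.53. Without the lowest cell, at -10.61, its SD at 24 h was 1.98. With values above Ct 20 treated as missing the ratio of A43 was 0.84, so its direction turned.

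**Figure D4:**
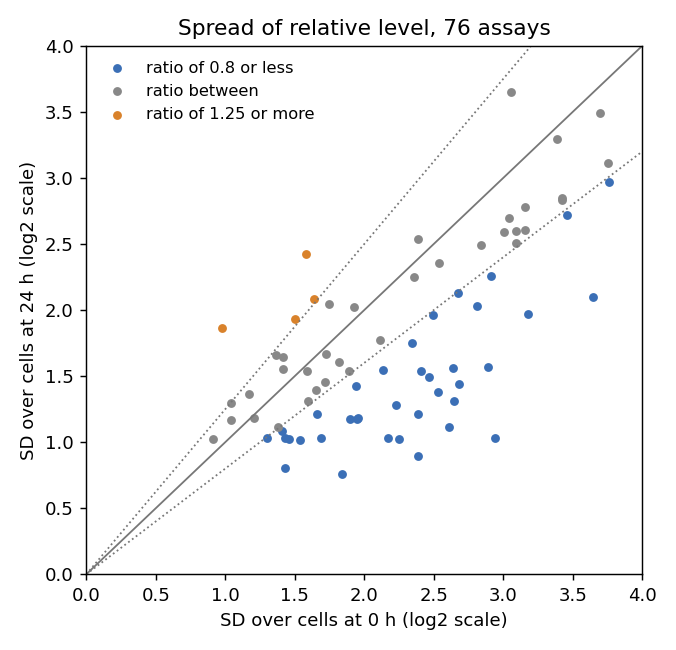
SD over cells of the relative level, on the log2 scale, at 0 h (horizontal) and 24 h (vertical) for the 76 assays with at least 20 cells with a value at each time. The solid line marks equal SDs and the dotted lines a ratio of 0.8 and its inverse. Of the 76 points, 61 lie below the solid line.

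The range of template levels between cells was also narrower at 24 h, and whether it bears on the spread was not tested. Without the cells above Ct 17, the SD was smaller at 24 h for 55 of 75 assays, with a median ratio of 0.84. Among the cells between Ct 12 and 15 it was smaller for 46 of 69, with a median ratio of 0.89, and the ratio was 0.8 or less for 21 assays and at least the inverse of 0.8 for 10. The interquartile range, which extreme cells move little, was smaller at 24 h for 53 of 76 assays. In each of these settings more assays were narrower than wider at 24 h. Past the size rule, 28, 21 and 31 assays were narrower in the same order, against 37, and 6, 10 and 8 were wider, against 4.

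Assays differed in how their Ct followed the template level of the cell. For 76 assays with at least 20 cells at each time, the Ct was set against the median of the common assays in the same cell, leaving out the assay itself. This readout was added after the data had been seen. Pearson's r had a median of 0.61 at 0 h and 0.63 at 24 h, and it was at least 0.5 at both times for 43 assays (56.6%). For 8 assays (10.5%) it was under 0.2 at both times, with values from -0.13 to 0.15. For these 8 assays r lay between -0.23 and 0.33 in the control cells, and 7 of them were under 0.2 in all 4 groups. Without the cells above Ct 17 the values of the 8 assays in ethanol cells lay between -0.08 and 0.30. The 8 assays differed in late values, with 0 of 53 values above Ct 20 at 0 h for A15 and 18 of 41 for A58. Whether late values bear on r was not tested. A26 and A58 of the 8 were also among the 10 assays higher in level.

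A15 is one of these 8 assays. Its Ct lay between 8.99 and 13.4 over 53 cells at 0 h and between 8.19 and 13.1 over 54 cells at 24 h, with SDs of 1.17 and 1.13, while the medians of those cells ranged up to 20.7. A15 had no value in 2 cells at 0 h, with medians of 15.5 and 22.3. The r against the median of the cell was -0.10 at 0 h and 0.03 at 24 h. A07, with a median Ct of 16.9 at 0 h and 15.5 at 24 h, had r of -0.10 and -0.13. By contrast A27, with a median Ct of 12.2 and 11.3, had r of 0.75 over 47 cells and 0.69 over 47 cells, and its Ct was above 20 in 4 cells at 0 h and 1 cell at 24 h, all with medians above Ct 17. The cell with the highest median, 22.3, differed from these, with a Ct of 13.8 for A27 and no value for A15.

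**Figure D5:**
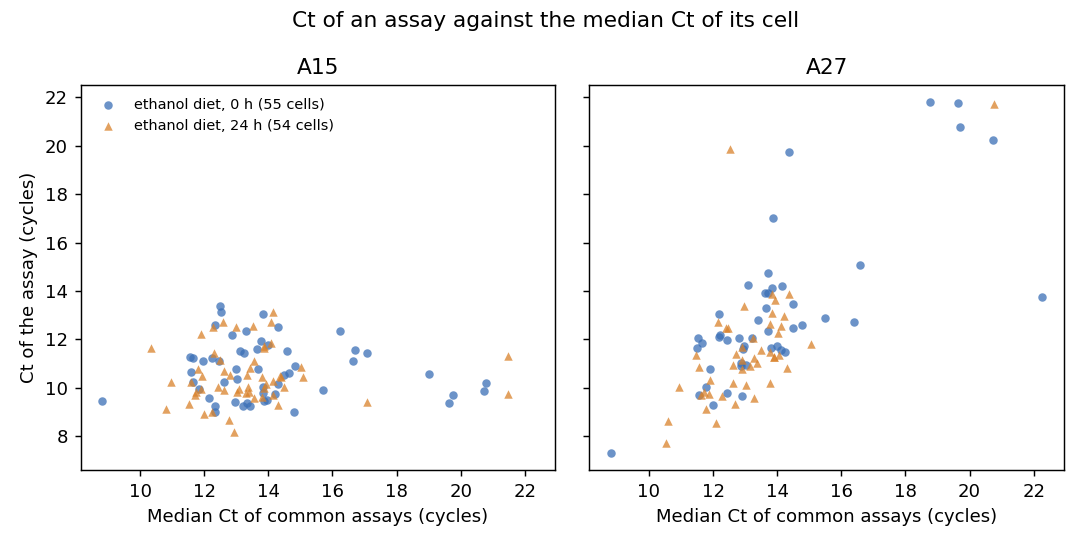
Ct of A15 (left) and A27 (right) in cycles against the median Ct of the common assays in the same cell, without A15 itself in the left plot. Each point is 1 ethanol-fed cell at 0 h (circles) or 24 h (triangles). The Ct of A15 stays between 8.19 and 13.4 in the cells with a value, which leave out 2 cells at 0 h, and that of A27 is above 20 in 4 cells at 0 h and 1 at 24 h, all with a median above Ct 17.

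The number of pairs of assays that varied together between cells was lower at 24 h than at 0 h with the main scaling. The order turned under 2 other choices and held under the rest. With relative levels, and at least 20 cells with both values at each time, 2630 pairs of assays could be compared. Pearson's r had a median of 0.10 at 0 h, with quartiles of -0.10 and 0.35, and a median of 0.03 at 24 h, with quartiles of -0.14 and 0.23. It was at least 0.5 for 319 pairs at 0 h (12.1%) and 171 at 24 h (6.5%), and -0.5 or less for 16 and 26 pairs. At both times it was at least 0.5 for 91 pairs (3.46%), which are 28.5% of the pairs at 0 h and 53.2% of those at 24 h. All values of a pair share the cell, its reverse transcription and pre-amplification, and the median it was scaled to. Without scaling the median r was 0.40 at 0 h and 0.34 at 24 h. When cells were scaled to the 38 assays common to both ethanol groups, a choice added after the data had been seen, 395 pairs at 0 h and 407 at 24 h were at least 0.5. With NULL entered at Ct 30, likewise added, the numbers were 108 and 131 of 3486 pairs. The order of the 2 times turned in both settings. It held by Spearman's rho (259 and 124 pairs), without scaling (999 and 727) and with values above Ct 20 missing (644 and 352). It also held without cells lacking all 5 assays (315 and 188) and without cells above Ct 17 (224 and 112). Among cells between Ct 12 and 15 the numbers were 165 and 88.

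Among the pairs that varied together at both times, 50 of 91 held at least 1 of the 8 assays that did not follow the template level, as did 535 of all 2630 pairs. Of the 91 pairs, 23 held 2 of the 8, out of 27 such pairs that could be compared. The median r among those 27 pairs was 0.67 at 0 h and 0.67 at 24 h, against 0.10 and 0.03 over all 2630 pairs. Without scaling it was 0.30 and 0.38 among the 27 pairs, against 0.40 and 0.34 over all 2630 pairs. A steady Ct minus a changing cell median gives relative levels that move with the median by construction. In unscaled values, the assays that follow the template level share it instead. Neither comparison with all pairs is thus free of the template level, and its part in either was not tested.

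Pairs were ranked by the lower of their r values at the 2 times. A15 and A74 came first, with 0.86 over 53 cells at 0 h and 0.88 over 54 cells at 24 h. Their r was 0.79 and 0.89 on the control diet, and 0.73 and 0.77 in ethanol cells without scaling. Among cells between Ct 12 and 15 it was 0.82 over 36 cells and 0.85 over 38 cells. With NULL entered at Ct 30 the lower of its values at the 2 times was 0.35, below the size rule. A07 and A15 came next, at 0.83 over 49 cells and 0.79 over 50 cells, but at 0.52 and 0.39 without scaling.

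The largest differences in r between the times rested on fewer cells. A27 and A31 went from 0.83 over 24 cells at 0 h to -0.38 over 40 cells at 24 h, or from 0.58 to -0.23 by Spearman's rho and from 0.93 to 0.10 without scaling. With NULL entered at Ct 30 their r was higher at 24 h by 0.039, so the direction turned. A09 and A19 went from 0.40 over 21 cells to -0.73 over 31 cells, or from 0.34 to 0.02 without scaling. In the other direction A06 and A63 went from -0.52 over 23 cells to 0.57 over 32 cells, and to 0.14 at 24 h without the cells above Ct 17. A43 and A55 went from -0.48 over 24 cells to 0.40 over 38 cells. Leaving out the cells above Ct 17 removed 1 of those 24 cells and gave 0.29 at 0 h. These 4 pairs are the extremes of 2630 and were picked for their difference, so their values are descriptions only.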

How the data were processed

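The authors deposited 1 table of Ct values, on an inverse log2 scale of template amount and not normalized, with 1 column per cell matched to the labels by the cell's description. Cycle numbers are per the labels' protocols. The labels name neither the software, the threshold for Ct, the rule for NULL nor the gene of an assay. Entries of NULL were taken as no value, except at Ct 30 in the cell's common-assay median. No 2 columns were identical. All steps ran in Python 3.11.15 with numpy 2.4.6, pandas 2.3.3 and scipy 1.17.1. The steps for level, SD and pairs were tested on simulated data in which every assay followed the cell median. The share comparison and the Ct against the median were not simulated. Size rules were 1 on the log2 scale, 20 percentage points, an SD ratio of 0.8 or its inverse, and an r of 0.5. The 2 largest differences in each direction of each readout were named. The cells were taken by their labels alone, but this comparison, the size rules and the alternatives were chosen with earlier results of these data known. The window of Ct 12 to 15, the ethanol-only scaling for spread and co-variation, and NULL at Ct 30 for co-variation were added after seeing the data. No test was made, since each group is 1 sample.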

Additional observations from a re-analysis of the deposited data

How the results depend on the processing

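The labels number single cells and tie none to an animal. No paired analysis was possible because no label says which cells came from the same animal, and no test was made. The assays higher and lower in level, 10 and 3, were 32 and 1 without scaling, 43 and 7 with NULL entered at Ct 30, 3 and 6 with values above Ct 20 missing. The lower count was 6 with the ethanol common assays, and the higher count 18 among cells of Ct 12 to 15. In that window 2 shares were lower by at least 20 points, against 0. The 4 assays with a wider spread were 8 by interquartile range, 7 with values above Ct 20 missing, 8 with the ethanol common assays and 10 in the window, where the 37 narrower ones were 21. The SD ratio of A43 turned to 0.84 with values above Ct 20 missing. Pairs with r of at least 0.5 at 0 h, at 24 h and at both times, 319, 171 and 91, were 999, 727 and 529 without scaling, 644, 352 and 222 with values above Ct 20 missing, and 165, 88 and 31 in the window. With NULL entered at Ct 30, those at 0 h were 108 and those at both times 32, and the change in r of A27 and A31 turned to 0.039. At 24 h and at both times they were 407 and 186 with the ethanol common assays, and 112 and 46 without cells above Ct 17. Of the other values tried for whole counts and medians, 41 stayed within 1.5 times or 1 SD. The cause of these shifts was not tested. The number of cells with a value limits the spread and r of sparse assays.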
